A study of Mus musculus with 6 samples.

Results

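Liver genes that depend on growth hormone, 9 of the 33296 genes with a count, were described in 6 mouse liver tumours: the major urinary protein genes Mup3, Mup20 and Mup21, and Elovl3, Hsd3b5, Slco1a1, Selenbp2, Cyp4a12a and Cyp4a12b. They were taken by gene symbol, and each symbol had 1 Ensembl gene. The set was chosen from the read counts of these same libraries, in which its genes stood higher after treatment. Their difference between the groups is therefore given as a description, with no test. All 9 passed the filter on low counts, which asks for about 0.274 CPM (counts per 1000000 counts) in 3 libraries, and 8 of the 9 would have failed it on the Control libraries alone.

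The tumours grew from HCA-1, a mouse hepatocellular carcinoma line, of which 1000000 cells were placed under the liver capsule of male C3H mice aged 6 to 8 weeks. Control tumours (libraries 3, 4 and 5) were untreated, and the labels do not say whether these mice received an empty carrier. TSDP tumours (libraries 1, 2 and 5) came from mice given nanoparticles with DNIC, a nitric oxide donor, and sorafenib, a kinase inhibitor, into a vein 6 times from day 10 to day 23. Tumours of both groups were taken on day 24. Nothing says how the libraries map to cages or batches, so the spread between replicates is the spread between these samples.

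In male mice the pituitary releases growth hormone in pulses, and in hepatocytes the receptor GHR, the kinase JAK2 and the transcription factor STAT5B carry each pulse to the genome. Major urinary proteins, a fatty acid elongase, a steroid reductase, an organic anion transporter and several cytochromes P450 are among the genes that this pattern holds high in male liver. The same pattern keeps another group of genes low that female liver expresses. Albumin, encoded by Alb, is the main plasma protein made by hepatocytes and does not need the male pattern.

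The sequences before the starts of 4 of the genes are shown because the genes stood high in the same libraries. Mup3 and Mup21 are also near neighbours of the Mup family. Of the 9 genes, 5 were found in the RefSeq promoter table (build GRCm38.p6). Each sequence holds the 250 bases before the annotated gene start, 5′ to 3′ on the strand of the gene. Mup3 lies at chr4:62087318-62087567 and Mup21 at chr4:62150842-62151091, Hsd3b5 at chr3:98645535-98645784 and Slco1a1 at chr6:141946963-141947212, each on the minus strand. Capitals mark matches to the core promoter box TATATAA or to AGGTCA, the motif of many nuclear receptors, on either strand.
Mup3: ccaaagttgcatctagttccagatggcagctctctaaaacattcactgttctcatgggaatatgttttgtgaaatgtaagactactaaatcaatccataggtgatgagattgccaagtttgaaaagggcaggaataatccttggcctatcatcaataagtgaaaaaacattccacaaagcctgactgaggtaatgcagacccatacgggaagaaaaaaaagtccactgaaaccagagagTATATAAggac
Mup21: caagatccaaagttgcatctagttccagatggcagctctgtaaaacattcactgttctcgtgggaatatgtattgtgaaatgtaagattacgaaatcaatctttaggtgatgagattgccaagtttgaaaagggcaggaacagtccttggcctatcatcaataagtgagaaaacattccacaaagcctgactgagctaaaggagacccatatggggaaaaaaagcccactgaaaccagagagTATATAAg
Hsd3b5: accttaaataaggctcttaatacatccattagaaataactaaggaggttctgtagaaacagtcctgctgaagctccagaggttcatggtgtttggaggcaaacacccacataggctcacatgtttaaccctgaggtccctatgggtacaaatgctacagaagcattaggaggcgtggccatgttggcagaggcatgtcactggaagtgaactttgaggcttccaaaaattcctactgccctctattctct
Slco1a1: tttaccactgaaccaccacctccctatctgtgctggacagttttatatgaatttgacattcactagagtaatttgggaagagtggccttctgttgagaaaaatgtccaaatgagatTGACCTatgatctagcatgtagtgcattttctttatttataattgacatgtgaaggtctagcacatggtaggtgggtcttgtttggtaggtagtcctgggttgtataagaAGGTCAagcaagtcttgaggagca

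Mup3 and Mup21 were identical at 228 of 244 aligned bases (93.4%). Other Mup genes were also like Mup3 here, from 88.6% for Mup4 and 88.3% for Mup6 down to 80.6% for Mup14. The same TATATAA stood 11 to 5 bases before the annotated start of Mup3 and 8 to 2 bases before that of Mup21. That heptamer was present in 3.04% of the 32851 promoter windows of the table. Slco1a1 held AGGTCA 24 to 19 bases before its start and its reverse complement 134 to 129 bases before, and 14% of all windows held at least 1 match. TTCNNNGAA, the palindrome that STAT5 and BCL6 bind, had 0 matches in the windows of the 5 genes and was present in 7.02% of all windows. No match says only that these letters are not in this window. The matches did not overlap each other.

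The libraries held 32130808 to 38953397 counts. They differed widely in liver RNA: 40 general hepatocyte genes, Alb among them, summed to 513, 34194 and 5617 CPM in Control 3, 4 and 5, against 46253, 89311 and 29298 CPM in TSDP 1, 2 and 5. Alb stood at 62.7, 10349.6 and 1993 CPM in Control against 17147, 32438 and 11314 CPM in TSDP, a log2 fold change (TSDP over Control) of 2.30 ± 1.46 (SE). Without each library in turn this value ran from 1.71 without Control 3 to 4.30 without Control 4. In bulk tumour RNA, fewer hepatocytes and less RNA per hepatocyte cannot be told apart, and how much normal liver each piece carried was not recorded in the labels. The tumour markers Afp and Gpc3 were at 3.27 to 9.20 CPM and 0.680 to 4.83 CPM over the 6 libraries, and Igf2 at no more than 0.031 CPM. For the whole table, edgeR's quasi-likelihood test called 0 of 17423 genes at an adjusted p under 0.05, which is 0% of those tested. The range of all 3 TSDP values lay above all 3 Control values for 13% of genes and below them for 8.76%.

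The major urinary proteins are small secreted lipocalins that bind pheromones and pass into urine. Mup3 was counted at 8, 1277 and 884 reads in Control 3, 4 and 5, against 18132, 44992 and 17380 reads in TSDP 1, 2 and 5. As CPM these were 0.247, 39.2 and 22.0, against 497, 1300.1 and 485. The lowest TSDP tumour stood 12.4-fold above the highest Control tumour, and the log2 fold change was 5.22 ± 1.52 (SE, n = 3 each). Mup20, the male pheromone darcin, was at 0.0618, 5.43 and 6.26 CPM in Control against 101.6, 255 and 60.5 CPM in TSDP. Its lowest TSDP value was 9.67 times its highest Control value (log2 fold change 5.14 ± 1.30, SE). Mup21 was at 0.0618, 0.981 and 1.02 CPM in Control against 42.3, 95.4 and 40.2 CPM in TSDP. Of the 9 genes it had the widest gap between the groups, 39.5-fold from the highest Control to the lowest TSDP value, and the largest log2 fold change, 6.41 ± 0.87 (SE). Control 3 was lowest and TSDP 2 highest for each of these 3 genes.

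**Figure D1:**
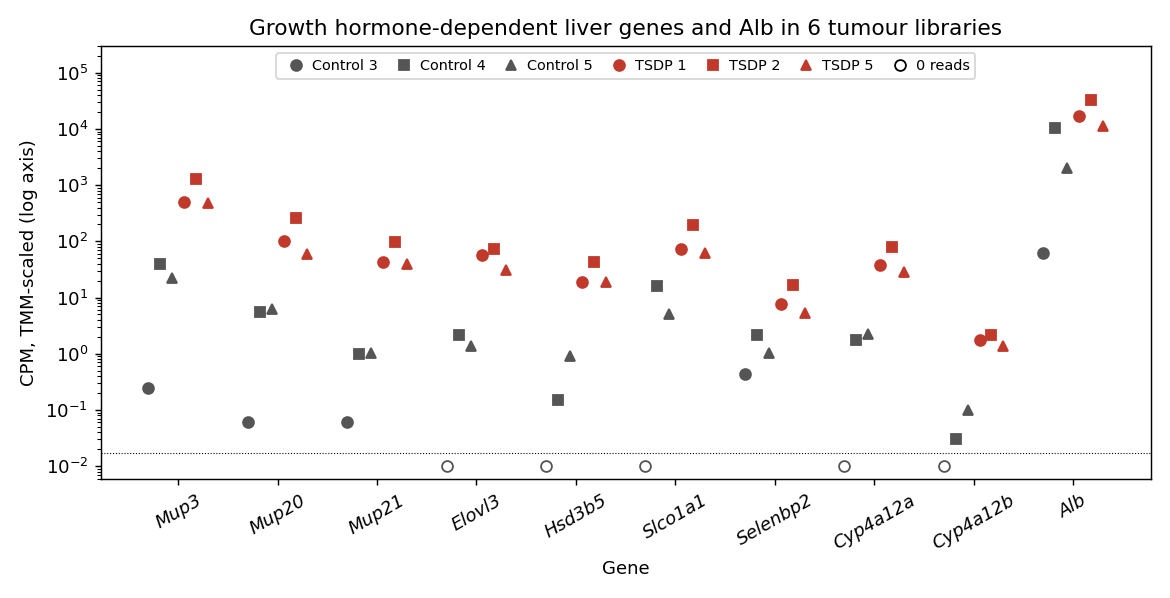
CPM (TMM-scaled, log axis) of the 9 genes and Alb, 1 point per library, grey for Control and red for TSDP, with open circles for 0 reads. The TSDP points lie above the Control points for each gene, and the gap is narrowest for Alb, where Control 4 (10349.6 CPM) is close to TSDP 5 (11314 CPM).

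Elovl3, an elongase of very long chain saturated and monounsaturated fatty acids, was at 0, 2.12 and 1.37 CPM in Control against 56.0, 71.7 and 30.9 CPM in TSDP, a log2 fold change of 5.5 ± 1.10 (SE). Hsd3b5, a 3-ketosteroid reductase of male liver, had 0, 5 and 36 reads in Control against 692, 1497 and 688 in TSDP. That is a mean of 0.349 CPM ± 0.479 against 27.1 CPM ± 14.0 (SD, n = 3 each), and a log2 fold change of 6.20 ± 1.09 (SE). This value leant on Control 5, the library with most Control reads of the gene: without it the log2 fold change was 8.37.

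Cyp4a12a and Cyp4a12b are neighbouring genes for near-identical fatty acid hydroxylases. Cyp4a12a was at 0, 1.75 and 2.21 CPM in Control against 38.6, 78.5 and 28.1 CPM in TSDP (log2 fold change 5.18 ± 1.14, SE). Cyp4a12b was far lower, with 0, 1 and 4 reads in Control against 64, 74 and 49 reads in TSDP (log2 fold change 5.14 ± 0.70, SE). The groups did not overlap for either gene, and the TSDP values of Cyp4a12b varied by 1.56-fold while those of Cyp4a12a varied by 2.79-fold.

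Slco1a1, which encodes the uptake transporter Oatp1a1 of bile salts and steroid conjugates, was at 0, 16.0 and 5.05 CPM in Control against 72.7, 192 and 63.0 CPM in TSDP. Its lowest TSDP value was 3.94 times its highest Control value (log2 fold change 3.96 ± 1.46, SE). Selenbp2, a selenium-binding protein, had the smallest difference of the 9 genes. It stood at 0.432, 2.12 and 1.04 CPM in Control against 7.78, 16.7 and 5.36 CPM in TSDP, a log2 fold change of 3.05 ± 0.69 (SE). The groups did not overlap for 9 of the 9 genes, all higher in TSDP, against 13% of all genes in that direction. Since this contrast chose the genes, nothing is read from that count.

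CPM per kilobase of exon allow levels to be ordered across genes. In TSDP tumours the mean level per kilobase was 712 for Mup3, 149.9 for Mup20 and 87.6 for Mup21. These 3 kept that order in each TSDP library, although Mup20 and Mup21 came close in TSDP 5, at 65.2 and 59.4. Elovl3 (26.8 ± 10.4, SD), Slco1a1 (20.7 ± 13.7), Cyp4a12a (20.0 ± 11) and Hsd3b5 (17.5 ± 9.01) followed, and these neighbours did not differ beyond their spread (n = 3). Selenbp2 was at 4.38 and Cyp4a12b at 0.732. For Alb the same measure was 8668. Across the 6 libraries the log2 CPM of the 9 genes correlated with each other at r = 0.835 to 0.998 over 36 pairs (median 0.965), a description of libraries that share their depth and liver content.

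Each gene was then set against Alb in the same library, as reads per 1000 Alb reads. This places tumours with unequal liver RNA on one scale. Control 4 and TSDP 5 had similar Alb levels. In this 1 pair of tumours Mup21 stood at 0.0948 and 3.56 reads per 1000 Alb reads. Slco1a1 stood at 1.54 and 5.57 in them, and Selenbp2 at 0.204 and 0.473. Over the libraries Mup21 was at 0.985, 0.0948 and 0.511 in Control against 2.47, 2.94 and 3.56 in TSDP. Mup3 was at 3.94, 3.78 and 11 in Control against 29.0, 40.1 and 42.9 in TSDP, so its lowest TSDP ratio was 2.63 times its highest Control ratio. Mup20 was at 0.985, 0.524 and 3.14 against 5.93, 7.87 and 5.35. Within the TSDP group the ratios of these genes to Alb were steady, with SDs of 0.26 to 0.30 on the log2 scale, while the SDs in Control were 0.85 to 1.87.

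Hsd3b5 was at 0.0148 and 0.449 reads per 1000 Alb reads in Control 4 and 5 and at 1.11, 1.33 and 1.70 in TSDP. In Control 4 this rests on 5 Hsd3b5 reads beside 337489 Alb reads. Elovl3 was at 0.204 and 0.686 in Control 4 and 5 and at 3.27, 2.21 and 2.73 in TSDP. Cyp4a12a was at 0.169 and 1.11 against 2.25, 2.42 and 2.49, and Slco1a1 at 1.54 and 2.53 against 4.24, 5.93 and 5.57. For these genes too each TSDP ratio was above both Control ratios.

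Control 3 could not be read for the genes with 0 reads there. It held 2030 Alb reads, so a count of 0 allows up to 1.48 reads per 1000 Alb reads by the limit of 3 counts, and up to 1.82 by the exact 95% interval. The first is above the ratio of Hsd3b5 in TSDP 1 and 2, and the second above its ratio in each TSDP library. For Elovl3, Slco1a1 and Cyp4a12a the TSDP ratios were above both limits in each library. Mup3, with 8 reads there, had an exact 95% interval of 1.70 to 7.78 per 1000 Alb reads, and Mup20 and Mup21, with 2 reads each, one of 0.119 to 3.56, which reaches the TSDP ratios of Mup21. Intervals and limits cover counting error only.

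Selenbp2 did not share this pattern. It was at 6.90, 0.204 and 0.524 reads per 1000 Alb reads in Control against 0.454, 0.516 and 0.473 in TSDP, so that Control 5 was above each TSDP library. The mean log2 ratio of Selenbp2 differed by -0.94 (TSDP minus Control) with Control 3 and by 0.54 without it. Cyp4a12b was at 0.00296 and 0.0499 in Control 4 and 5, against 0.102, 0.0659 and 0.121 in TSDP, so each TSDP ratio was above both, and the difference in mean log2 ratio was 2.58 without Control 3. Its 0 reads in Control 3 enter only through the pseudocount of 0.5 and cannot be told from the ratio of any library at this depth. With them the difference was 1.25, and -0.32 where Control 4 was left out.

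**Figure D2:**
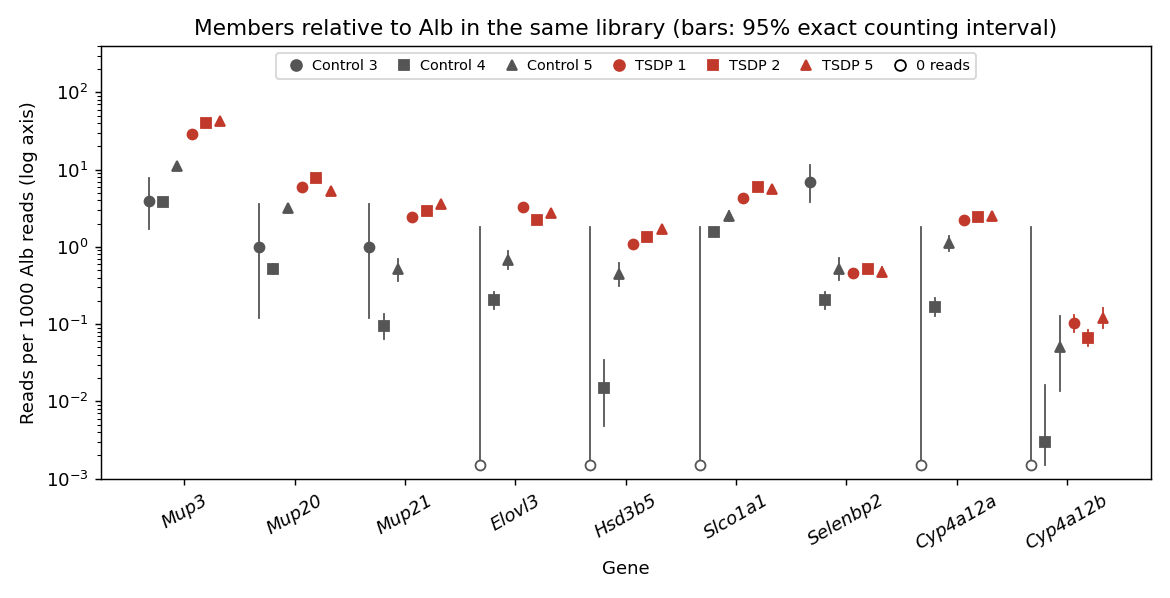
Reads of each gene per 1000 Alb reads in the same library (log axis), with 95% exact counting intervals and open circles for 0 reads. TSDP points lie above Control 4 and 5 for 8 of the 9 genes, Selenbp2 being the exception, and the intervals of Control 3 are wide because it held 2030 Alb reads.

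The difference in mean log2 ratio to Alb, TSDP minus Control, had a median of 2.72 over the 9 genes, and of 2.51 without Control 3. The other 39 general hepatocyte genes, such as those for apolipoproteins, clotting factors and amino acid enzymes, had a median of 0.10, and 0.09 without Control 3. Without Control 3, 7 of the 9 genes lay above the highest of these 39, the tyrosine aminotransferase gene Tat at 1.45, and Slco1a1 (1.39) and Selenbp2 (0.54) lay below it. The lowest of the 39 was Arg1 at -0.996, and the fibrinogen genes Fga, Fgb and Fgg lay at -0.63, -0.68 and -0.68. Over all tested genes, most of which are not liver genes, the median was -4.10, and -2.03 without Control 3. The ratios of all 3 TSDP libraries lay above those of all 3 Control libraries for 7 of the 9 genes. This compares with 7 of the 39 hepatocyte genes and 0.459% of all genes. They lay above Control 4 and 5 for 8 of the 9, against 13 of the 39 and 0.964% of all genes. The count of 7 of the 9 places genes with 0 reads in Control 3 by the pseudocount of 0.5. With Control 3 at the upper bound of its exact 95% interval it was 5 of the 9, without Mup21 and Hsd3b5. The counts for the 9 genes come from the contrast that chose them and are given as a description.

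**Figure D3:**
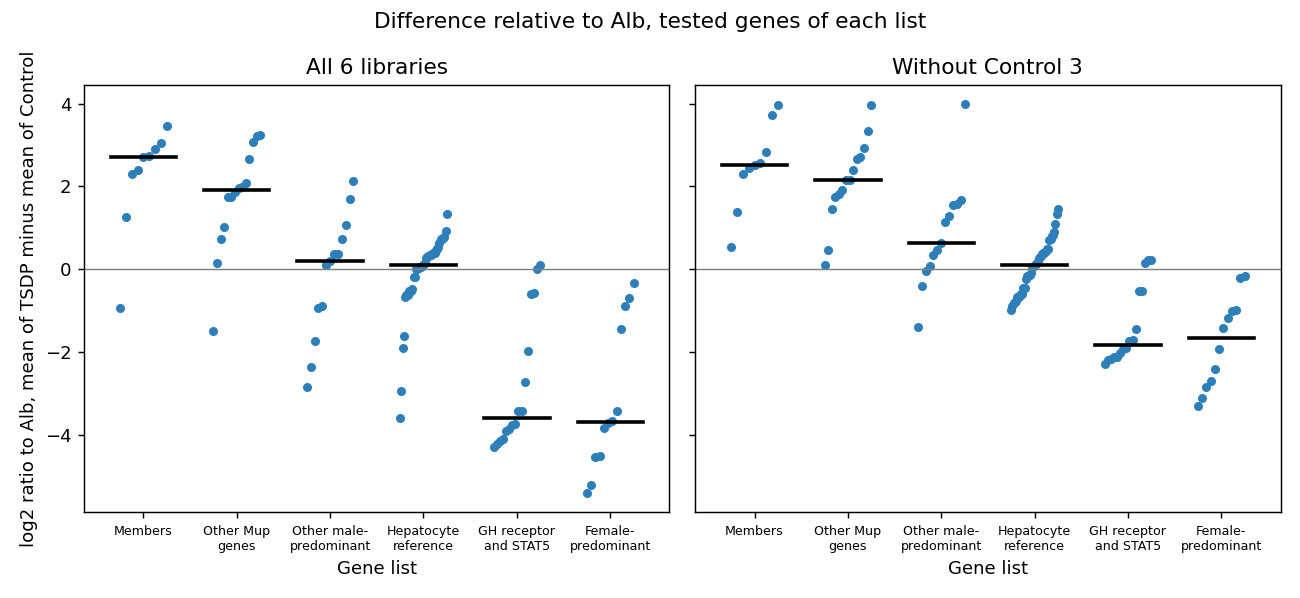
Difference in mean log2 ratio to Alb (TSDP minus Control) for each tested gene of 6 gene lists, with all 6 libraries and without Control 3. Points are genes and bars are medians, which are 2.72 and 2.51 for the 9 members and 0.10 and 0.09 for the hepatocyte reference genes.

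The rest of the Mup family was counted as well. Of the other 17 Mup genes with a count, 14 passed the filter, and each of these 14 would have failed it on the Control libraries alone. The 14 had log2 fold changes between 2.64 and 6.55. Summed over 20 Mup genes, the family took 19, 4628 and 2145 reads in Control 3, 4 and 5, against 44332, 105624 and 41516 in TSDP 1, 2 and 5. Per 1000 Alb reads that was 9.36, 13.7 and 26.7 in Control against 70.8, 94.1 and 102.4 in TSDP. This sum does not depend on how the counted reads were split among these 20 genes. It could still depend on whether reads matching several copies were counted, which the labels do not say. Mup pseudogenes are not in it. The lowest TSDP ratio was 2.65 times the highest Control ratio.

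Mup3, Mup20 and Mup21 together held 52.8%, 54.1% and 50.6% of Mup reads in TSDP 1, 2 and 5, 54.9% in Control 5 (exact 95% interval 52.7% to 57.0%) and 32.1% in Control 4 (30.8% to 33.5%). Control 4 thus had a different mixture: Mup9 and Mup10 took 24.8% and 22.2% of its Mup reads, and 15.5% to 18.5% and 9.6% to 10.5% in TSDP. Control 3, with 19 Mup reads in all, cannot be placed.

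How far reads can tell these genes apart was measured on the GENCODE M21 transcripts, whose gene identifiers match the count table. Each gene's longest coding transcript was cut into windows of 75 bases. For Mup3 6.81% and for Mup21 10.3% of windows occurred in another gene, in each case the other one of the pair. For Mup20 43.6% occurred in the pseudogene Mup-ps19, which had 0, 4 and 5 reads in Control against 101, 235 and 58 in TSDP. Mup9, Mup10 and Mup17, the most abundant of the other Mup genes, shared 89.3%, 85.8% and 68.7% of windows, so their single values are uncertain. Cyp4a12a and Cyp4a12b shared 40.8% and 41.3% of windows with each other, and Selenbp2 34.6% with Selenbp1. Hsd3b5 shared 11.7%, mostly with Gm10681, which had 0 reads in each library, Slco1a1 1.51% and Elovl3 0%. The labels do not say how reads matching several places were counted.

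**Figure D4:**
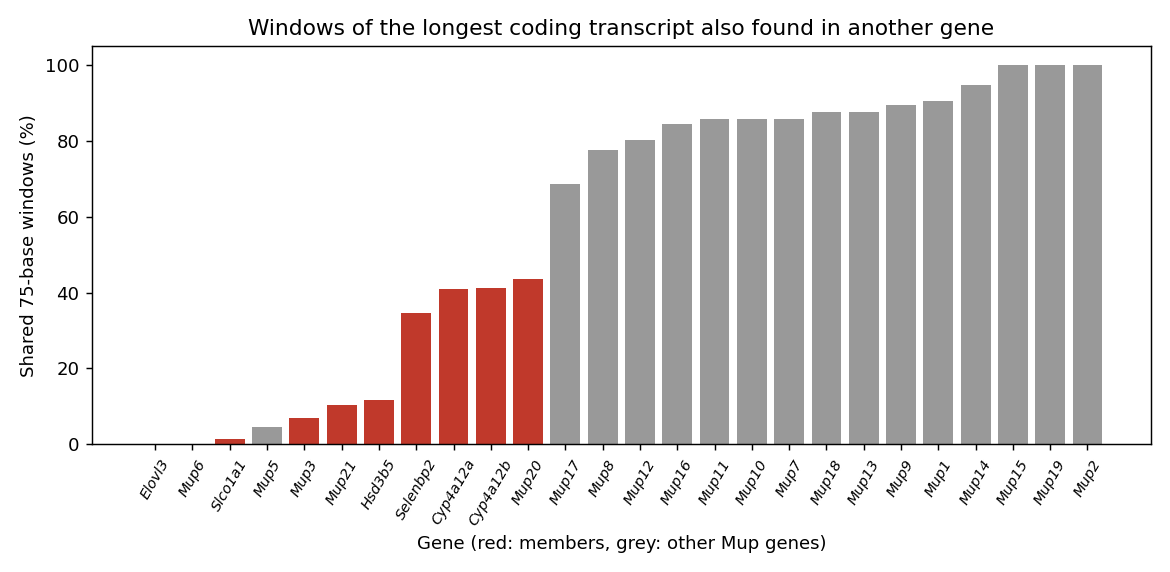
Percent of the 75-base windows of each gene's longest coding transcript that also occur in a transcript of another gene, red for the 9 members and grey for the other Mup genes. Mup3 (6.81%) and Mup21 (10.3%) share few windows, while most of the other Mup genes share over 68%.

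Relatives of the other members that were not on the list of male-predominant genes were described next. Of 14 tested paralogues, 7 would have failed the filter on the Control libraries alone. The log2 fold change was positive for 13 of the 14, with a median of 1.59, 0 called by edgeR and 3 called as higher by DESeq2, against 3.1% of genes called as higher and 0.429% as lower by DESeq2 over the table. Elovl5, an elongase of polyunsaturated fatty acids, averaged 156.7 CPM ± 33.3 in Control against 337 CPM ± 112 in TSDP (SD over 3 libraries each, with an adjusted p of 0.326 by edgeR). Elovl2 averaged 35.5 and 295 CPM, with a log2 fold change of 3.06 ± 1.47 (SE; adjusted p by edgeR 0.419). Hsd3b2, a steroid dehydrogenase, averaged 0.606 and 10.8 CPM (edgeR adjusted p = 0.326). Selenbp1 had 301, 884 and 458 reads in Control against 939, 1431 and 690 in TSDP, so its groups overlapped.

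Other genes that depend on the male growth hormone pattern also had positive log2 fold changes, as did general hepatocyte genes. Of 15 listed genes 13 were tested and 13 had positive log2 fold changes (median 3.11), beside 40 of 40 hepatocyte reference genes (median 2.44) and a median of -0.02 over all genes. Relative to Alb in the same library, the median log2 difference of the 13 was 0.20 with 8 positive. For the reference genes it was 0.10 with 25 of 39 positive. Without Control 3 the 13 had a median of 0.63 with 10 positive, beside 0.09 with 22 of 39 positive. edgeR called 0 of the 13 and DESeq2 8. Of the 13, 10 had an unadjusted edgeR p under 0.05 as higher, against 8.6% of all genes as higher and 4.75% as lower. For 7 of the 13 the Control libraries alone would not have passed the filter. Gstp1, a glutathione transferase that male liver holds high, was at 72.5, 92.9 and 82.7 CPM in Control against 294, 349.6 and 193 CPM in TSDP, with a log2 difference of 1.75 ± 0.24 (SE; adjusted p by edgeR 0.326). Ugt2b38, a glucuronosyltransferase, was at 0, 0 and 0.0249 CPM against 2.41, 2.02 and 0.725 CPM. Serpina1e, an antitrypsin, averaged 780 and 4424 CPM (edgeR adjusted p = 0.496).

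Female-predominant genes were mixed in direction. Of 26 listed 12 were tested, 7 with positive and 5 with negative log2 fold changes (median 0.38), and 4 of the 12 would have failed the filter on the Control libraries alone. edgeR called 0, with 0 higher and 2 lower at an unadjusted p under 0.05, and DESeq2 called 1 lower, Atp6v0d2. This proton pump subunit averaged 95.6 CPM ± 39.8 in Control against 41.6 CPM ± 8.75 in TSDP (SD over 3 libraries each, with an adjusted p of 0.326 by edgeR). The regulator Trim24 averaged 50.8 CPM ± 5.04 and 37.2 CPM ± 2.97 (edgeR adjusted p = 0.326). No Control library, Control 3 with its 2030 Alb reads included, held less than 66.7 CPM of Atp6v0d2 or 45.3 CPM of Trim24. How much of either came from hepatocytes was not tested. Relative to Alb, the log2 difference was positive for 0 of the 12 (median -3.69), beside 1.57% of all genes (median -4.10). Of the 7 cytochromes of this list with a count, 5 were at no more than 0.276 CPM in any library, among them Cyp2b9 and Cyp3a16. Cyp2b10 was at 0.0309 to 3.50 CPM in Control against 7.39 to 11.2 CPM in TSDP, groups that did not overlap, and Cyp3a44 at 0 to 1.17 against 0.493 to 2.34 CPM. The difference between the male and the female list was not tested.

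The receptor and its kinase had overlapping groups. Ghr was at 890, 618 and 717 CPM in Control against 707, 622 and 832 CPM in TSDP, and was thus abundant in Control 3, which had 2030 reads of Alb (log2 fold change -0.04 ± 0.20, SE; adjusted p by edgeR 0.938). Jak2 and Stat5b had log2 fold changes of 0.18 ± 0.21 and 0.17 ± 0.09 (SE), and the 3 TSDP values of Stat5b lay above its 3 Control values. Bcl6, a repressor that STAT5 displaces at shared sites, averaged 58.4 CPM ± 10.8 and 91.0 CPM ± 12.5 (SD over 3 libraries each, with an adjusted p of 0.326 by edgeR). Igfals, a liver carrier of IGF1 that growth hormone induces, averaged 1.42 and 9.47 CPM (edgeR adjusted p = 0.347), and Igfbp3, another carrier, 415 and 340.03 CPM (edgeR adjusted p = 0.656). Of the 16 genes in this list, 12 were positive and 0 were called by edgeR or DESeq2. An unadjusted edgeR p under 0.05 was found for 3 as higher and 0 as lower, against 8.6% and 4.75% of all genes. The groups did not overlap for 7 as higher and 0 as lower, against 13% and 8.76% of all genes. Among the 7 were Igf1 (25.2 to 146 CPM in Control against 149 to 447 CPM in TSDP) and Cish (4.17 to 8.68 against 8.93 to 14.2 CPM). On the Control libraries alone, 2 of the 16 would have failed the filter.

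With the log2 CPM of Alb as a covariate, a fit that leaves 3 residual degrees of freedom, edgeR called 0 genes. The medians were 3.15 for the 9 members, 1.64 for the other male-predominant genes, 2.32 for the other Mup genes, 0.21 for the hepatocyte reference genes, 0.08 for the receptor and STAT5 list and -0.45 for the female-predominant genes. Unadjusted p was under 0.05 as higher for 9 of the 13 male-predominant genes and for 8 of the 40 reference genes, of which 10 more had it as lower. Over all genes of this fit the shares were 2.84% as higher and 2.77% as lower. On the Control libraries alone, 7 of the 13 and 1 of the 40 would have failed the filter. The lists were also made with earlier results of these data known, so these counts are a description. Among the reference genes Fga averaged 1450 and 3410.2 CPM and Ahsg 829 and 3155 CPM in the Control and TSDP groups (edgeR adjusted p = 0.755 and 0.588 without the covariate), and both turned negative with it. Hal and Hgd, enzymes of histidine and tyrosine breakdown, averaged 31.5 and 68.6 CPM and 5.55 and 56.7 CPM (edgeR adjusted p = 0.334 each).

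The genes most like the 9 in pattern were found by Pearson's r of log2 CPM with the mean standardized profile of the 9 over 6 libraries, among 14302 genes with a mean of at least 1 CPM. Nudt7, itself on the male-predominant list and a peroxisomal coenzyme A hydrolase, came first (r = 0.998), followed by Hsd3b2, Emg1, Keg1 and Zfp366 (r = 0.994 to 0.996). Nudt7 was at 0.803, 9.54 and 7.38 CPM in Control against 67.5, 124 and 50.6 CPM in TSDP. Emg1, a ribosome biogenesis enzyme, had the library order of Mup3 with a small span, from 39.2 to 49.7 CPM. Alb itself had r = 0.915, and 8.7% of the genes compared had r over 0.9. These libraries share their liver content, so r ranks genes and tests nothing.

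Markers of other tissues in which members are also known were compared by their summed levels. The kidney tubule genes summed to at most 0.116 CPM in any library, brown fat genes to 8.95 to 18.2 CPM in Control against 13.3 to 20.1 CPM in TSDP, and skin genes to 5.87 to 7.51 and 4.52 to 5.61 CPM. Among the brown fat genes, Plin5 stood at 0.0927 to 1.69 CPM in Control against 3.35 to 8.09 CPM in TSDP, while Ucp1 was at no more than 0.154 CPM. Plin5 was called as higher by DESeq2, as were 3.1% of genes, and would have failed the filter on the Control libraries alone. Steroid gland genes summed to 6.02 to 10.2 and 5.58 to 7.11 CPM. Gland genes of tear and saliva, of which 2 of 5 had a count, summed to 38.7 to 79.4 and 66.2 to 112 CPM, and of these Amy1 was at 0.649 to 27.4 and 24.4 to 76.1 CPM and Aqp5 at 38.1 to 52.0 and 30.5 to 58.2 CPM. Summed markers of sinusoidal endothelium, Kupffer cells, B cells and T cells stood higher in TSDP without overlap, as the members did. Sinusoidal endothelium (4 of 5 genes with a count) summed to 24.4 to 86.8 CPM in Control against 89.5 to 256 CPM in TSDP. Kupffer cell genes (5 of 5) summed to 39.6 to 121 and 123 to 366 CPM. Gene by gene, the groups did not overlap for 3 of the 4 and 2 of the 5, against 13% of all genes. On the Control libraries alone, 1 of the 4 and 1 of the 5 would have failed the filter. Of the Kupffer cell genes, Marco had its highest value in Control (2.09 to 28.4 and 6.08 to 21.2 CPM). B cell genes summed to 3.34 to 20.6 and 46.3 to 72.8 CPM and T cell genes to 17.4 to 48.5 and 55.5 to 57.0 CPM. Singly, 4 of the 5 B cell genes and 2 of the 5 T cell genes did not overlap and were higher in TSDP. Of the B cell genes, 3 would have failed the filter on the Control libraries alone. Stellate cell and fibroblast genes summed to 1378 to 2625 and 1732 to 3521 CPM. Bile duct genes summed to 3460 to 8927 and 2160 to 7370 CPM, and oncofetal genes to 6.43 to 9.54 and 6.86 to 13.2 CPM. The stellate cell, bile duct and oncofetal sums overlapped between the groups. Col1a1 made up most of the stellate cell sum (1264 to 2328 and 1474 to 2828 CPM). Spp1 made up most of the bile duct sum (3232 to 8704 and 1978 to 7150 CPM). Lrat (0.0309 to 5.17 and 6.50 to 18.0 CPM) and Reln (0.185 to 23.1 and 26.5 to 85.8 CPM) did not overlap. These 2 genes would have failed the filter on the Control libraries alone. Of the same stellate list, Col1a1, Dcn and Pdgfrb overlapped. Of the oncofetal genes, Afp did not overlap (3.27 to 3.68 and 4.24 to 9.20 CPM). The part of these cells in the members' values was not tested.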

How the data were processed

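RNA from 6 tumours was extracted with a column kit and made into mRNA libraries, per the labels' protocols. The submitters' processing notes name HISAT2 2.1.0, featureCounts 2.0.0, Trimmomatic 0.38, CASAVA, FastQC and MultiQC. The build, the annotation and strandedness were not given in the sources used here. The count table deposited by the authors gives unnormalized read counts of 55536 genes, the same identifiers as GENCODE M21 (0 missing), which supplied exon lengths and transcripts. Their deposited normalized signal, each count divided by 1 constant per library, supplied symbols alone.

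Genes were fitted with edgeR 4.0.16 (R 4.3.3): TMM, filterByExpr (minimum count 10), quasi-likelihood F test and Benjamini-Hochberg adjustment over 17423 genes at 0.05. DESeq2 1.42.0, in which 15576 counted genes lacked an adjusted p, limma 3.58.1 (voom), other scaling, no filter, a covariate for Alb and fits without each library in turn were alternatives. SE was taken as the size of the log2 change over the square root of F. CPM use TMM-scaled totals. Ratios to Alb used a pseudocount of 0.5 on the log2 scale. The steps were tested on simulated data.

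The members and all lists were chosen with earlier results of these data known. Named genes were the members, Alb, from each of 6 lists the 2 with most counts and the 2 with the smallest p, and the 5 most alike in pattern. Other names (paralogues, markers, female-list cytochromes, extremes of a list and STAT5 genes) were chosen after their values were seen. Of 208 listed symbols, 13 had no count.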

Additional observations from a re-analysis of the deposited data

How the results depend on the processing

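No paired analysis was possible because the groups share 1 replicate number (5). The 9 members had positive log2 fold changes in each of the 12 fits. Their median of 5.18 was 3.15 with Alb as a covariate, and 4.61 to 5.61 with each library left out in turn. The median difference of the log2 ratio to Alb, 2.72, was 3.38 with the summed hepatocyte genes in its place, 2.08 with a pseudocount of 2 and 2.02 to 3.10 without each library. The edgeR count of 0 genes was 1 with no filter on low counts, 626 with DESeq2 and 0 without each library; in the lists of other growth hormone-dependent genes DESeq2 called 18. The cause of these differences was not tested. Without each library in turn, the Selenbp2 ratio ran from -2.02 without Control 4 to 0.54 without Control 3, and that of Cyp4a12b from -0.32 without Control 4 to 2.58 without Control 3. Ghr turned to 0.29 with Alb as a covariate and ran from -0.16 without TSDP 5 to 0.094 without Control 3, with 0.047 without TSDP 2; Fga and Ahsg turned to -1.07 and -0.66 with Alb as a covariate. Depth limits Control 3, with 2030 Alb reads, and Cyp4a12b, with at most 74 reads.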
